A study of Mus musculus with 12 samples.

Results

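The cochlea of mice exposed to 105 dB SPL noise was compared gene by gene with the cochlea of mice exposed to 94 dB SPL noise. The comparison takes 8 of the 12 RNA-seq libraries of the study, 4 from each of these sound levels, chosen by the intensity in their labels. dB SPL is sound pressure on a decibel scale, and the labels call 94 dB loud and 105 dB very loud. Animals of both groups were FVB/NCrl mice, an inbred albino strain, at postnatal day 60. They were awake during a single exposure of 30 minutes, and total RNA was taken from the cochlea with TRIzol as soon as it ended. The other 4 libraries, from mice at 70 dB (ambient), had no weight in the contrast, and their levels stand beside those of named genes. Not given in the sources used here are the sex of the mice, the number of animals behind a library and the days of exposure, so p-values measure the spread between libraries, which may be technical.

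Sound reaches the cochlea as movement of a membrane that carries hair cells, the sensory cells, which release glutamate onto spiral ganglion neurons. Outer hair cells amplify the movement, supporting cells and fibrocytes recycle potassium, and the stria vascularis, a vascular epithelium, keeps up the voltage that drives transduction. Loud noise is known to load hair cells and synapses, to shift hearing thresholds for a time or for good, and to start an early transcriptional response of immediate early genes, stress hormone targets and chaperones. Since RNA was taken at the end of the exposure, the levels below belong to that early window. A bulk library cannot tell fewer cells of a type from less RNA per cell, a limit that holds for every gene below. All 20 hair cell markers examined could be tested, and their summed level was 429.65 to 451.47 CPM (counts scaled to the size of the library) at 94 dB and 418.18 to 433.31 CPM at 105 dB. The dissected tissue also held RNA of bone, of muscle, and of marrow or blood. Bone cell markers summed to 4789 to 5090 CPM at 94 dB and 4729 to 5173 CPM at 105 dB. Skeletal muscle markers summed to 5756 to 11339 CPM at 94 dB and 8642 to 11193 CPM at 105 dB. Neutrophil markers summed to 9592 to 17743 CPM at 94 dB and 10474 to 12251 CPM at 105 dB.

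The libraries differed in makeup within the 94 dB group. Genes of the mitochondrial genome took 3.53, 3.59, 2.69 and 2.73% of counts in 94 dB replicates 1 to 4, and 4.85, 4.43, 4.44 and 5.35% in the 105 dB libraries. Replicates 3 and 4 of 94 dB thus lay below replicates 1 and 2, and they were also higher in haemoglobin genes (2.90 and 2.95% against 1.75 and 2.07%) and in ribosomal protein genes (3.86 and 3.97% against 2.99 and 3.11%). These libraries are called the 94 dB pair below, and results are given with and without them. The mean mitochondrial share was 3.13 ± 0.49% at 94 dB and 4.77 ± 0.43% at 105 dB (SD, n = 4), a difference of 1.64 percentage points without overlap. A two-sided exact permutation test gave p = 0.0286, the smallest that 70 assignments allow, and an adjusted p of 0.0857 over 3 shares. Without the pair the difference was 1.21 points, still without overlap. Its exact permutation p of 0.133 is the smallest that 2 against 4 libraries allow, so it could not have passed. Haemoglobin genes took 2.42 ± 0.60 and 2.40 ± 0.35% of counts (exact permutation p = 0.886; SD, n = 4), and ribosomal protein genes 3.48 ± 0.50 and 3.27 ± 0.37% (exact permutation p = 0.514). Totals ran from 32057388 to 40239711 counts per library.

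Of 19497 genes tested, 3372 (17.3%) differed between 105 and 94 dB at an adjusted p below 0.05, the threshold used throughout. At 105 dB 1572 genes were higher (8.06% of those tested) and 1800 were lower (9.23%). Most differences were small. The median size among these genes was 0.36 on the log2 scale, and 31 higher and 87 lower genes went past 2-fold. In 4148 genes (21.3%) no 105 dB library overlapped a 94 dB library, and 2815 of these were also called. Without the 94 dB pair 217 of 20202 genes (1.07%) were called, 57 higher (0.282%) and 160 lower (0.792%). Leaving out replicates 1 and 2 of 94 dB in its place, which leaves as many libraries, gave 4604 calls. Of the 217, 210 were among the 3372. All 3372 kept their sign without the pair, with a median size of 0.27. That fit reuses the 105 dB libraries and 94 dB replicates 1 and 2. In the 2815 called genes without overlap, leaving out libraries could hardly turn the sign, so the kept signs are no independent support. The genes described below are ordered by role, and each carries its value without the pair where that ended its call.

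**Figure D1:**
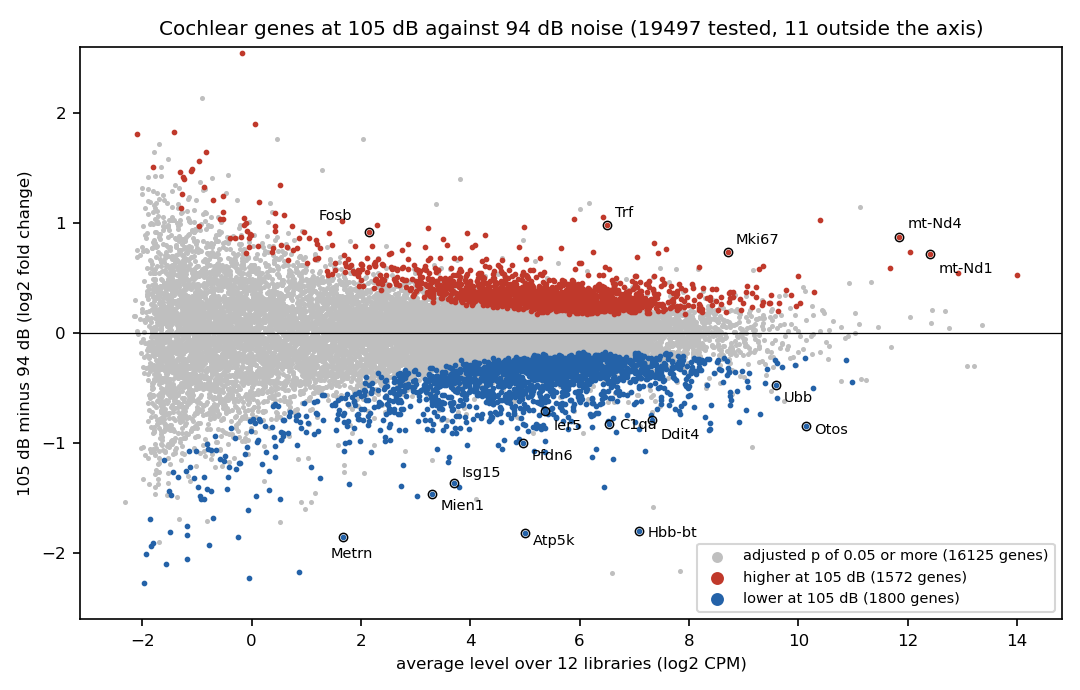
Each point is 1 of 19497 genes, with its average level over 12 libraries (log2 CPM) on the horizontal axis and its log2 fold change (105 dB minus 94 dB) on the vertical axis; 11 genes lie outside the axis limits. The 1572 red genes passed as higher and the 1800 blue genes as lower at 105 dB, and most of both lie within 1 log2 unit of 0.

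The direction of a difference followed base composition. Genes higher at 105 dB had a median GC content of 44.3% in their longest transcript, genes lower at 105 dB 55.7% and genes not called 49.5%. Median exon lengths were 5576 bases for genes that were higher, 3297 for those that were lower and 3637 for the others. Across 19484 genes, which are not independent replicates, the Spearman correlation of the fold change with GC content was -0.45, and it was -0.36 without the 94 dB pair. With the trend on GC content and length removed in each library, 1908 genes passed (9.79%), 890 higher (4.56%) and 1018 lower (5.22%), and 1360 of them were among the 3372. By then 45 of the 3372 had changed sign. What moved fold changes with GC content was not tested.

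**Figure D2:**
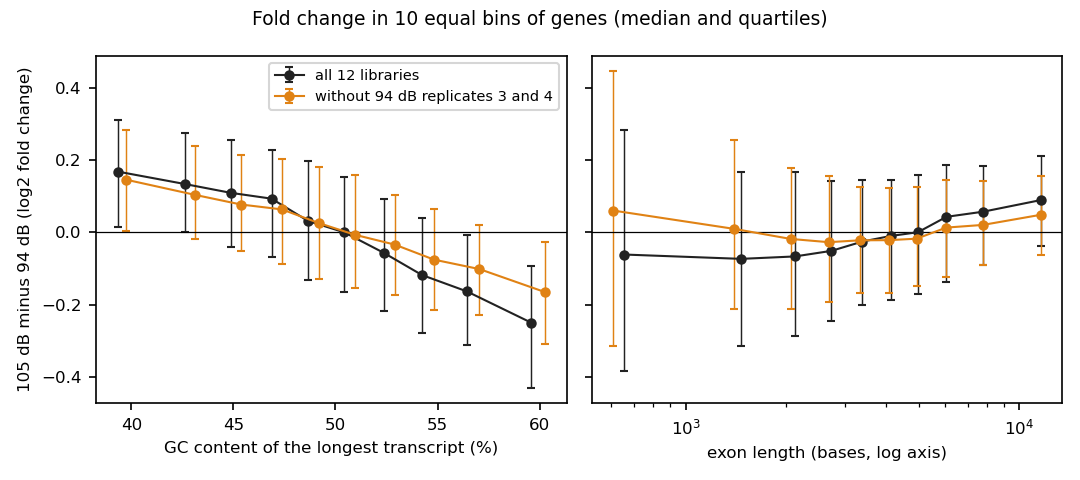
Median log2 fold change (105 dB minus 94 dB; bars are quartiles) in 10 equal bins of genes by GC content of the longest transcript (left, percent) and by exon length (right, bases, log axis), with all libraries in black and without 94 dB replicates 3 and 4 in orange, drawn a little to the side. In the bin of lowest GC content the median was 0.17 and in the highest -0.25, and without the pair 0.15 and -0.17.

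The genes of the mitochondrial genome were higher at 105 dB than at 94 dB. This small circular genome encodes 13 subunits of the respiratory chain and ATP synthase. Of the 13 genes 10 rose, 6 of them subunits of complex I, and none fell, beside 8.06% of all genes tested that rose. Their median difference was 0.73 on the log2 scale, where that of all genes tested was 0.0015. Without the 94 dB pair 3 of 13 passed (mt-Nd1, mt-Nd4 and mt-Cytb), beside 0.282% of all genes, with a median of 0.63. The mitochondrial share given above is counted largely from these same genes, so it is no separate support for their rise. The part of the other differences in library makeup was not tested.

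The complex I gene mt-Nd1 (ENSMUSG00000064341; GRCm38 mitochondrial chromosome, 2751 to 3707) read 4032, 4092, 3544 and 3366 CPM in 94 dB replicates 1 to 4 and 5943, 5712, 6683 and 6418 CPM in those of 105 dB. The lowest 105 dB library stood above the highest 94 dB library, and the 70 dB libraries, at 6271 to 6512 CPM, reached the 105 dB level. Its log2 difference was 0.72 (SE 0.08, adjusted p = 0.000349), and it passed under each of the 24 alternatives that hold it, since 1 of 25 leaves out mitochondrial and haemoglobin genes (adjusted p 5.07e-17 to 0.0327). Another complex I gene, mt-Nd4 (ENSMUSG00000064363; mitochondrial chromosome, 10167 to 11544), read 2697, 2897, 2048 and 1956 CPM at 94 dB and 4079.8, 4271, 4865 and 4414 CPM at 105 dB. The groups again did not overlap, 94 dB replicates 3 and 4 were the lowest of the 8, and the difference of 0.88 (SE 0.12, adjusted p = 0.000639) passed in the same 24 (1.66e-10 to 0.0149). The cytochrome b gene mt-Cytb rose by 0.54 (SE 0.10, adjusted p = 0.00264), from 5868 ± 899.8 to 8557 ± 309 CPM (SD, n = 4). It passed without the pair (difference 0.36, adjusted p = 0.0436) and after removal of the GC and length trend (0.0338), though not with both changes together (range over all alternatives 7.35e-07 to 0.407).

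Other members of this genome did not pass without the pair, where their differences stayed above 0. The cytochrome oxidase gene mt-Co1 read 13395, 13602, 10271 and 11169 CPM at 94 dB and 18603, 16229, 14305 and 20504 CPM at 105 dB, a difference of 0.52 (SE 0.12, adjusted p = 0.00767). The call was lost without the pair (difference 0.37, adjusted p = 0.139) and after removal of the GC and length trend (0.0627, range 0.000147 to 0.534). The complex I genes mt-Nd2, mt-Nd6 and mt-Nd4l rose by 0.73, 1.03 and 0.81 (adjusted p = 0.00178, 0.00481 and 0.00354). Without the pair the differences were 0.58, 0.76 and 0.63, and their p 0.0548 (range 2.76e-07 to 0.123), 0.0713 (9.81e-08 to 0.113) and 0.0865 (2.65e-05 to 0.284). The gene mt-Nd6 lies on the strand opposite to most of this genome, and counts without strand cannot tell it from transcripts of the other strand. Of the 3 genes not called, mt-Co3 read 43.5, 225, 35.2 and 41.3 CPM at 94 dB, where replicate 2 stood far above the others, against 44.9, 65.4, 98.1 and 64.8 CPM at 105 dB (adjusted p = 0.751). Without 94 dB replicate 2 its difference turned from -0.34 to 0.77 (adjusted p = 0.0742, range 0.0742 to 0.997). For mt-Co2 the difference was 1.18 (adjusted p = 0.0541, 0.0301 without 105 dB replicate 1, 0.00795 by DESeq2, range 0.00795 to 0.48) and for mt-Nd3 0.42 (adjusted p = 0.215).

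Nuclear genes for the same machinery stood the other way. Of 45 nuclear genes of oxidative phosphorylation tested, 16 fell and none rose, beside 9.23% of all genes tested that fell, and 9 of the 16 encode complex I. Their median difference was -0.27. Without the 94 dB pair 3 of 45 fell (0.792% of all genes) and the median was -0.10, while 15 fell after removal of the GC and length trend (5.22% of all genes).

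Ndufa1 (ENSMUSG00000016427; GRCm38 chromosome X, 37187588 to 37191163), an accessory subunit of complex I, read 52.1, 49.8, 58.2 and 53.3 CPM at 94 dB and 30.9, 32.3, 30.6 and 24.3 CPM at 105 dB. All 105 dB libraries lay below all 94 dB libraries, replicates 1 and 2 of 94 dB included, and the 70 dB libraries lay at 21.7 to 24.5 CPM. The difference was -0.86 (SE 0.09, adjusted p = 0.000194) and held under every alternative (1.25e-15 to 0.00805). Ndufa3, another accessory subunit, fell by 0.77 (SE 0.11; adjusted p = 0.00091), from 68.03 ± 10.8 to 39.9 ± 4.72 CPM (SD, n = 4), and held likewise (1.25e-08 to 0.0192). For Ndufa2 the levels were 74.8, 70.1, 87.1 and 77.2 CPM at 94 dB and 40.6, 42.6, 64.1 and 40.8 CPM at 105 dB, with replicate 3 the highest of the 105 dB group. Its difference of -0.72 (SE 0.13, adjusted p = 0.00389) was lost without the pair (adjusted p = 0.0847, range 4.48e-06 to 0.0847). Sdhd, a membrane anchor of complex II, differed by -0.34 (SE 0.06, adjusted p = 0.00305), and its p was 0.0583 without the pair (range 5.03e-06 to 0.0583).

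A small subunit of ATP synthase, Atp5k, had the largest fall of the list. It read 55.4, 48.3, 76.9 and 82.02 CPM at 94 dB and 26.8, 23.8, 15.3 and 8.61 CPM at 105 dB, with 94 dB replicates 3 and 4 on top and 70 dB libraries at 7.09 to 21.2 CPM. The difference of -1.82 (SE 0.44, adjusted p = 0.0223) was lost without 94 dB replicate 3 (0.0657), 94 dB replicate 4 (0.0633), 105 dB replicate 3 (0.0537) or the pair (0.227, range 0.000634 to 0.304). Pet100, an assembly factor of cytochrome oxidase that is not on the list, read 12.6, 12.5, 27.4 and 25.2 CPM at 94 dB and 8.43, 8.28, 9.72 and 7.995 CPM at 105 dB (-1.17 (SE 0.26, adjusted p = 0.0119)). Replicates 1 and 2 of 94 dB stood closer to the 105 dB libraries than replicates 3 and 4 did, and the p was 0.104 without the pair (range 9.83e-06 to 0.111). Pet100 overlaps Pcp2 in the annotation, and reads shared between them could not be separated.

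Ribosomal protein genes changed in both directions. Of 48 tested, 4 rose and 8 fell, beside 8.06% and 9.23% of all genes. Their median of -0.12 became 0.14 without the 94 dB pair, when none of them passed, beside 1.07% of all genes in that fit. Rps29, of the small subunit, fell by 0.66 (SE 0.11; adjusted p = 0.00288), from 269.6, 265, 309 and 292 CPM at 94 dB to 184, 199, 202 and 135 CPM at 105 dB without overlap. Rps16 read 382, 410.2, 573 and 547 and 300.4, 326, 334 and 252 CPM (-0.66 (SE 0.13, adjusted p = 0.00462)), and Rpl7, of the large subunit, rose from 631, 688, 636 and 654 to 773, 837, 959 and 749.7 CPM (0.35 (SE 0.08, adjusted p = 0.00794)). Without the pair the differences were -0.57, -0.39 and 0.33, and the adjusted p 0.0713 for Rps29 (range 2.85e-06 to 0.0713), 0.0751 for Rps16 (1.58e-05 to 0.0751) and 0.0945 for Rpl7 (0.000277 to 0.206). These genes have many near-identical processed copies, and how reads of such copies were counted is not given in the sources used here.

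**Figure D3:**
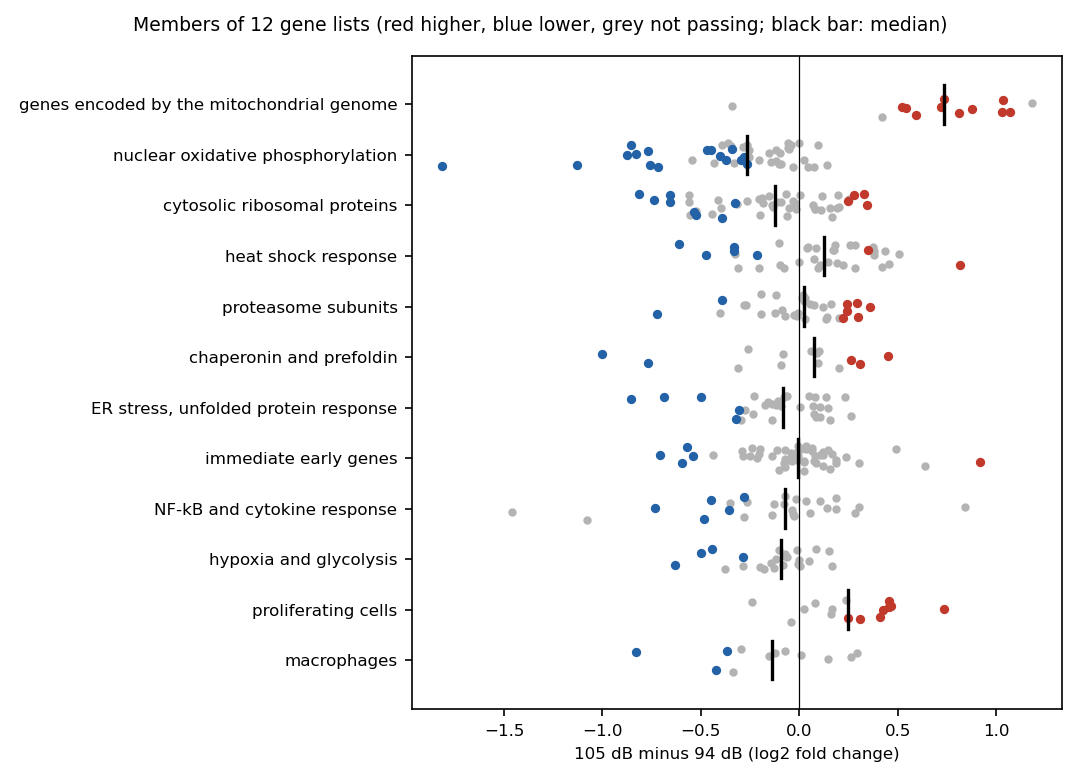
Log2 fold change (105 dB minus 94 dB, horizontal axis) of each tested member of 12 gene lists, 1 point a gene; red genes passed as higher, blue as lower and grey did not pass, and a black bar marks the list's median. Mitochondrially encoded genes lie to the right (median 0.73) and nuclear genes of oxidative phosphorylation to the left (median -0.27).

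Chaperones and degradation genes form the proteostasis network named in the study's title. None of the 10 HSP70, HSP110 and HSP90 genes passed. Among all 36 members of the heat shock list, whose median was 0.12, 2 were called higher and 5 lower, a share near the 17.3% of all genes called. Hspa1b, an inducible HSP70, read 91.7, 69.97, 85.1 and 60.9 CPM at 94 dB and 89.5, 109, 66.7 and 102 CPM at 105 dB, and its copy Hspa1a 29.3, 23.2, 31.4 and 22.2 and 31.4, 43.7, 23.5 and 30.2 CPM. The groups overlapped in both genes (adjusted p = 0.822 and 0.793), reads of these near-identical copies may be shared, and the 70 dB libraries ranged from 14.2 to 118 CPM for Hspa1b. For Dnajb1, an HSP40 cochaperone, the difference was 0.28 (SE 0.18; adjusted p = 0.319).

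The constitutive HSP70 gene Hspa8 stood at 1802, 1789, 1477 and 1719.8 CPM at 94 dB and 2223, 2479, 2512 and 2095 CPM at 105 dB. These groups did not overlap, the 70 dB libraries ranged from 1257 to 2370.3 CPM, and the difference of 0.46 (SE 0.16, adjusted p = 0.0591) did not pass. It passed in a fit of the 8 noise libraries alone (adjusted p = 0.00806), by DESeq2 (0.0135) and without 70 dB replicate 1 (0.0172) or 3 (0.0191, range 0.00806 to 0.555). Hsp90aa1, the inducible cytosolic HSP90, read 924 ± 150.3 and 1237 ± 65.9 CPM (SD, n = 4), also without overlap, and did not pass (0.42 (SE 0.16, adjusted p = 0.082)). Its p was 0.0186 with the 8 noise libraries alone, 0.0242 by DESeq2, 0.0398 without 70 dB replicate 1 and 0.0247 without 70 dB replicate 3 (range 0.0186 to 0.75). Among cochaperones, Dnajb2, a J-domain protein, fell from 141, 147, 158 and 141 CPM at 94 dB to 112, 116, 121 and 117 CPM at 105 dB. Every 105 dB library was below every 94 dB library, the difference was -0.33 (SE 0.06, adjusted p = 0.00321), and it passed without the 94 dB pair (0.0459) but not after removal of the GC and length trend (0.102, range 3.35e-06 to 0.241). Fkbp4, an HSP90 cochaperone of steroid receptors, changed by -0.33 (SE 0.08, adjusted p = 0.0097), lost without the pair (0.142) and with the trend removed (0.132, range 0.000736 to 0.435). The heat shock transcription factor gene Hsf2 rose by 0.35 (SE 0.09, adjusted p = 0.0149), lost without 105 dB replicate 1 (0.0502), without the pair (0.154) and with the trend removed (0.33, range 0.00379 to 0.543).

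Ubb, which encodes several units in a row of ubiquitin, the tag that marks proteins for degradation, went from 851, 847, 1011 and 1106 CPM at 94 dB to 727, 704, 685 and 631 CPM at 105 dB. The groups did not overlap. Its difference was -0.47 (SE 0.11, adjusted p = 0.00831), lost without the pair (0.167, range 0.000436 to 0.316). The gene holds near-identical repeats, so its reads may be counted with uncertainty.

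Subunits of the proteasome, which degrades tagged proteins, changed in both directions. Of 32 tested, 6 rose and 2 fell, with a median of 0.02, beside 8.06% and 9.23% of all genes. In the 19S cap 4 of 18 rose and none fell, and in the 20S core 2 of 14 rose and 2 fell, a difference between parts that was not tested. Both that fell were catalytic subunits of the 20S core. Psmb7 read 80.7, 77.04, 86.9 and 83.4 CPM at 94 dB and 60.4, 61.3, 66.6 and 61.3 CPM at 105 dB, and its difference of -0.39 (SE 0.07, adjusted p = 0.00189) held under every alternative (1.76e-06 to 0.0436). Psmb5 read 47.9, 45.3, 66.6 and 72.4 CPM and 33.1, 37.7, 39.98 and 30.1 CPM, with 94 dB replicates 3 and 4 highest (-0.72 (SE 0.14, adjusted p = 0.00642); 0.0742 without the pair, range 2.17e-05 to 0.0742). Of the cap, the ATPase subunit Psmc6 rose from 100.3, 100.2, 96.4 and 92.4 to 122, 124, 135 and 118 CPM (0.36 (SE 0.06, adjusted p = 0.00258)), and Psmd1 by 0.29 (SE 0.06, adjusted p = 0.00741). Without the pair their adjusted p were 0.0583 (range 3.19e-06 to 0.328) and 0.119 (range 0.000351 to 0.242), Psmc6 had 0.0712 after removal of the GC and length trend, and without the pair 1 of 32 subunits rose and 1 fell (0.282% and 0.792% of all genes).

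Prefoldin and the chaperonin TRiC, which take up new actin and tubulin chains one after the other, are small families here. Of 6 prefoldin genes 2 fell and none rose, and of 8 TRiC genes 3 rose and none fell, beside 9.23% of all genes lower and 8.06% higher. Without the pair both prefoldin genes passed and no TRiC gene did, and the difference between the families was not tested. Pfdn6 (ENSMUSG00000024309; GRCm38 chromosome 17, 33938821 to 33940343) read 41.7, 41.2, 55.97 and 53.7 CPM at 94 dB and 22.03, 21.5, 29.6 and 23.02 CPM at 105 dB, with 19.2 to 23.5 CPM at 70 dB. No libraries overlapped between the noise levels, and the 105 dB libraries took up the 70 dB range. The difference of -1.002 (SE 0.12, adjusted p = 0.000521) held under every alternative (6.95e-12 to 0.0107), as did that of Pfdn2 (-0.77 (SE 0.12, adjusted p = 0.00137); 1.45e-07 to 0.0382), a gene that overlaps Klhdc9. Tcp1, a TRiC subunit, rose from 181, 164, 142 and 142 CPM to 213, 218, 212 and 216 CPM (0.45 (SE 0.08, adjusted p = 0.00285); 0.0668 without the pair, range 1.26e-05 to 0.19).

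In the endoplasmic reticulum, where secreted and membrane proteins fold, 5 of 32 genes fell and none rose, beside 9.23% and 8.06% of all genes. Without the pair none of them passed in either direction, beside 1.07% of all genes. With the GC and length trend removed 1 rose and 2 fell (4.56% and 5.22% of all genes), so the single direction was not kept there. Hyou1, a large HSP70-like chaperone of this compartment, read 139, 172, 179 and 176 CPM at 94 dB and 117, 119, 116 and 118 CPM at 105 dB, without overlap. It changed by -0.50 (SE 0.10, adjusted p = 0.0054) (0.117 without the pair, range 0.00016 to 0.241). Derl3, which helps to export misfolded proteins for degradation, changed by -0.85 (SE 0.20, adjusted p = 0.00942) (0.13 without the pair and 0.0634 after removal of the GC and length trend, range 0.000454 to 0.293). The main chaperone Hspa5 read 872, 1022, 927 and 1033 CPM at 94 dB and 892, 893, 887 and 878 CPM at 105 dB, and its groups overlapped (difference -0.12, SE 0.13; adjusted p = 0.588). Atf4, the transcription factor of the integrated stress response, read 254 ± 7.85 and 236 ± 27.9 CPM (SD, n = 4; difference -0.11, SE 0.08; adjusted p = 0.421), where 70 dB libraries lay at 148 to 184 CPM.

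Immediate early genes are switched on within minutes of neuronal activity, growth factors or stress, by factors already present in the cell such as CREB and SRF. Their summed level was 3269 to 3680 CPM at 94 dB and 3160 to 3568 CPM at 105 dB, above 1645 to 2037 CPM at 70 dB. Of 53 tested between the noise levels, 1 rose and 4 fell, with a median of -0.01, a smaller share than the 17.3% of all genes called. The promoters of Fosb, which rose, of its relative Fos, and of Junb and Ier5, which fell, are shown, since these genes share a class and not a direction. Each is 300 bases, 250 before to 50 after the transcript start, on the gene's own strand, from RefSeq in the GRCm38.p6 build. They lie at chr12:85473640-85473939 (plus strand) for Fos, chr7:19309996-19310295 (minus) for Fosb, chr8:84978699-84978998 (minus) for Junb and chr1:155099587-155099886 (minus) for Ier5. Capitals mark the bases TGACG, the half-site of the cyclic AMP response element (CRE), or CGTCA where it lies on the opposite strand.
Fos: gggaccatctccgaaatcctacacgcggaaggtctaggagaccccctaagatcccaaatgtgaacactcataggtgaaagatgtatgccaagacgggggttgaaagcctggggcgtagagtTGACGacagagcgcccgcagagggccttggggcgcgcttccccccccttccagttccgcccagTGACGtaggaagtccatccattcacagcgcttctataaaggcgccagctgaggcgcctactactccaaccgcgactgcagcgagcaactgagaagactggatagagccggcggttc
Fosb: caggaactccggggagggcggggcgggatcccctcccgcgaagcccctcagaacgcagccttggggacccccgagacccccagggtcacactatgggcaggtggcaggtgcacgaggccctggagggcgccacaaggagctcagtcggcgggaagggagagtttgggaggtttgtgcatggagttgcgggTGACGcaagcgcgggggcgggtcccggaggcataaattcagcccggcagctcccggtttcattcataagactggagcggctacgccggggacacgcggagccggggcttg
Junb: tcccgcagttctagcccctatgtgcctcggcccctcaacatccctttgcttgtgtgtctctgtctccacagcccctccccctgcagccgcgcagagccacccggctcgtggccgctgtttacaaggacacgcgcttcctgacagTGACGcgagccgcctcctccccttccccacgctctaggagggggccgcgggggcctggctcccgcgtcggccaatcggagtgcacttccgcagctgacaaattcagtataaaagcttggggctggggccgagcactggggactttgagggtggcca
Ier5: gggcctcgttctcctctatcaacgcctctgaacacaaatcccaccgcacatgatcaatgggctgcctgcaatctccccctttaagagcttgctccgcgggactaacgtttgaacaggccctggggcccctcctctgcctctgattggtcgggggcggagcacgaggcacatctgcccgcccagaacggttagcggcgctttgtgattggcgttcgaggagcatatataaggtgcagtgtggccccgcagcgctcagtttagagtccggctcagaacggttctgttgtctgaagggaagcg

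The Fos window holds this half-site at 2 places, Fosb and Junb hold 1 each, and Ier5 holds none. Among 32851 promoter windows of this length 20.8% hold it. None of the 4 windows holds the full CRE TGACGTCA, which contains the half-site (1.79% of windows). The AP-1 site TGACTCA or its reverse complement TGAGTCA (5.2%) and a pair of heat shock units, GAANNTTC or TTCNNGAA (15.1%), are likewise not among their letters. A match of letters describes a sequence and shows no binding.

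Fosb (ENSMUSG00000003545; GRCm38 chromosome 7, 19302696 to 19310051), an AP-1 subunit, was the 1 member that rose. It read 4.83, 3.93, 3.47 and 4.21 CPM at 94 dB and 7.06, 7.37, 7.66 and 8.99 CPM at 105 dB, with 0.984 to 1.96 CPM at 70 dB. All 105 dB libraries were above all 94 dB libraries, and these above all 70 dB libraries. Its difference was 0.92 (SE 0.19, adjusted p = 0.00483), and without the 94 dB pair 0.83 (adjusted p = 0.0945, range 2.70e-05 to 0.0945). Fos, its better known relative, read 58.3, 45.7, 50.3 and 53.1 CPM at 94 dB and 70.8, 88.96, 60.3 and 103 CPM at 105 dB. The groups did not overlap, yet the difference of 0.64 (SE 0.21, adjusted p = 0.0606) did not pass. It did in the 8 noise libraries alone (0.0253), by DESeq2 (0.00462) and without 70 dB replicate 1 (0.0275) or 105 dB replicate 3 (0.036, range 0.00462 to 0.414). Egr1, a zinc finger factor, read 119.7, 122, 145 and 99.9 CPM and 178, 204, 110.5 and 192 CPM, where 105 dB replicate 3 alone fell among the 94 dB libraries. Its difference was 0.49 (SE 0.20, adjusted p = 0.122), and the adjusted p was 0.0179 without that library and 0.0249 by DESeq2 (range 0.0179 to 0.379). The nuclear receptor gene Nr4a1 (164 ± 19.4 and 193 ± 21.4 CPM; SD, n = 4) and the synaptic gene Arc (3.87 ± 0.472 and 4.40 ± 0.228 CPM; SD, n = 4) overlapped between groups (adjusted p = 0.47 and 0.366).

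Of the members that fell, Ier5 (ENSMUSG00000056708; GRCm38 chromosome 1, 155096361 to 155099636), an immediate early response gene, read 49.2, 54.9, 58.1 and 62.2 CPM at 94 dB and 33.2, 31.9, 36.8 and 35.6 CPM at 105 dB. The 105 dB libraries lay about where those of 70 dB did (31.4 to 34.5 CPM), and 94 dB replicates 1 and 2 also stood above all of them. Its difference of -0.71 (SE 0.08, adjusted p = 0.000229) held under every alternative (1.77e-13 to 0.00805). Its relative Ier5l fell by 0.60 (SE 0.15; adjusted p = 0.014), lost without the pair (0.25) and after removal of the GC and length trend (0.189, range 0.000563 to 0.881). Junb, an AP-1 subunit, read 75.8, 87.3, 121 and 98.98 CPM at 94 dB, 63.3, 69.4, 58.3 and 66.4 CPM at 105 dB and 29.5 to 36.8 CPM at 70 dB. Both noise levels stood above 70 dB, and 105 dB below 94 dB by -0.57 (SE 0.12, adjusted p = 0.00624), a call that was lost without the pair (0.0872) and with the trend removed (0.186, range 0.000102 to 0.714). Junb overlaps Prdx2 in the annotation. Cebpb, a factor of acute stress responses, read 140.4 ± 36.2 and 96.7 ± 8.75 CPM (SD, n = 4) with overlap. Its p of 0.0477 rose above 0.05 on leaving out any 1 of 10 libraries (0.0501 to 0.12) and was 0.257 without the pair and 0.899 with the trend removed (range 0.00428 to 0.951).

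**Figure D4:**
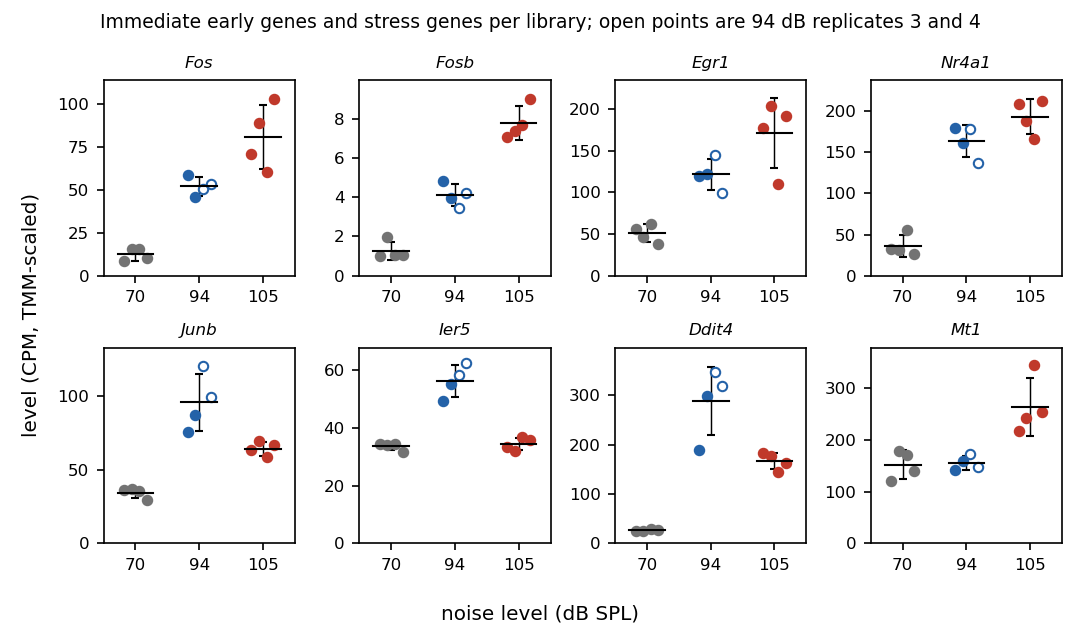
CPM (vertical axis, from 0) of 8 genes in each of 4 libraries at 70, 94 and 105 dB SPL, with the mean and SD as lines; open points are 94 dB replicates 3 and 4. Fosb has its highest libraries at 105 dB, whereas Ier5, Junb and Ddit4 have their highest means at 94 dB, and Mt1 reads 217 to 346 CPM at 105 dB against 142 to 173 CPM at 94 dB.

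Few stress hormone targets were called. Glucocorticoids rise with loud noise and act through a nuclear receptor on genes such as Ddit4 and Per1. Of 21 genes of this response 1 rose and 2 fell, a share no higher than the 17.3% of all genes called. Ddit4 (ENSMUSG00000020108; GRCm38 chromosome 10, 59949669 to 59951834), an inhibitor of the growth kinase mTOR, read 25.5, 24.7, 28.5 and 26.7 CPM at 70 dB, 189, 298, 347 and 318 CPM at 94 dB and 182, 176, 145 and 163 CPM at 105 dB. Every noise library was above every 70 dB library, and the 105 dB libraries were below those of 94 dB, with replicate 1 of 94 dB closest to them. The difference of -0.79 (SE 0.15, adjusted p = 0.00488) was -0.55 without the pair (adjusted p = 0.0865, range 2.54e-06 to 0.316). Mt1, a metal-binding metallothionein, read 142, 159.9, 173 and 149 CPM at 94 dB and 217, 243, 346 and 254 CPM at 105 dB without overlap, and 120.4 to 179 CPM at 70 dB. Its difference of 0.77 (SE 0.15, adjusted p = 0.00564) was as large without the pair (0.81), where its adjusted p was 0.0847 (range 5.43e-06 to 0.0847). Arl4d, a small GTPase gene, changed by -0.48 (SE 0.10, adjusted p = 0.00685) (0.119 without the pair, range 0.000274 to 0.214). The clock gene Per1 read 188, 207, 248 and 207 CPM and 185, 190.1, 155 and 182 CPM, overlapped between the noise levels (-0.26 (SE 0.14, adjusted p = 0.218)) and stood at 35.05 to 59.98 CPM at 70 dB.

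In the mTOR list, which joins inhibitors with the kinase complex, 2 of 17 genes rose and 4 fell, beside 8.06% and 9.23% of all genes. Tsc1, an inhibitor upstream of mTOR, read 39.4, 36.3, 34.04 and 37.1 CPM at 94 dB and 30.01, 29.8, 28.2 and 27.2 CPM at 105 dB. No library overlapped, 94 dB replicates 3 and 4 did not stand out, and the difference of -0.35 (SE 0.07, adjusted p = 0.00582) held under every alternative (0.000211 to 0.0481). Rptor, the scaffold of mTOR complex 1, changed by -0.35 (SE 0.08, adjusted p = 0.00884) (0.22 without the pair and 0.058 after removal of the GC and length trend, range 0.000377 to 0.61). The downstream kinase gene Rps6kb1 rose by 0.33 (SE 0.08, adjusted p = 0.0122) (0.225 and 0.156 in the same order, range 0.00106 to 0.745). Of 20 clock genes 2 rose and 5 fell, against the same shares. Tef, an output factor of the clock, fell from 207, 203, 240.3 and 236 to 179, 186, 173 and 167 CPM (-0.33 (SE 0.07, adjusted p = 0.00581)), and the repressor gene Bhlhe40 rose by 0.26 (SE 0.06, adjusted p = 0.00689). Both groups of libraries were separate in each gene, and without the pair their p were 0.124 (range 0.000141 to 0.283) and 0.11 (7.59e-05 to 0.114).

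Genes of inflammation were lower at 105 dB where they passed. NF-kB is held in the cytoplasm by inhibitors and, once free, drives genes of cytokines and adhesion. Of 27 tested, none rose and 5 fell, beside 8.06% and 9.23% of all genes, at a median of -0.07. In either direction that share is near the 17.3% of all genes called. Without the pair none rose and 1 fell (0.282% and 0.792% of all genes). With the GC and length trend removed 1 rose and 1 fell (4.56% and 5.22%), so the single direction was not kept there. Icam1, an adhesion molecule of vessels and leukocytes, read 23.1, 20.4, 19.6 and 19.9 CPM at 94 dB and 15.6, 15.5, 13.04 and 15.1 CPM at 105 dB. The groups did not overlap, and 94 dB replicates 3 and 4 lay below replicates 1 and 2. Its difference of -0.48 (SE 0.10, adjusted p = 0.00437) passed without the pair (0.0363) and after removal of the GC and length trend (0.0264) but not with both changes together (range 5.50e-05 to 0.0693). The subunit gene Relb fell from 19.6, 20.03, 21.9 and 19.9 to 16.7, 16.5, 16.5 and 13.97 CPM (-0.36 (SE 0.08, adjusted p = 0.00986)), and Socs3, a feedback inhibitor of cytokine signals, changed by -0.45 (SE 0.10, adjusted p = 0.00927). Both calls were lost without the pair (0.119 and 0.148) and with the trend removed (0.131 and 0.176; ranges 0.000634 to 0.377 and 0.000758 to 0.485). Nfkbia, the inhibitor that NF-kB itself induces, read 111, 137, 127 and 124 CPM and 131, 130.2, 125 and 132 CPM at 94 and 105 dB against 53.1 to 64.4 CPM at 70 dB. Both noise groups lay above all 70 dB libraries, and their difference of 0.06 (SE 0.07, adjusted p = 0.651) did not pass.

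The antioxidant factor NRF2 and its inhibitor KEAP1 differed in direction at the RNA level. KEAP1 keeps NRF2 (gene Nfe2l2) low by sending it to the proteasome. Keap1 read 59.9, 63.5, 62.3 and 60.1 CPM at 94 dB and 47.7, 47.1, 41.3 and 45.8 CPM at 105 dB, and Nfe2l2 126, 119.9, 111 and 103 CPM and 152, 147, 139.8 and 153 CPM. Neither gene overlapped between groups, Keap1 being lower (-0.43 (SE 0.07, adjusted p = 0.00169)) and Nfe2l2 higher (0.36 (SE 0.07, adjusted p = 0.00437)) at 105 dB. The call on Keap1 held without the pair (0.0274) and after removal of the GC and length trend (0.029), though not with both (range 1.53e-06 to 0.0821), and Nfe2l2 had 0.0925 without the pair (range 7.45e-05 to 0.15). Of 15 NRF2 targets 2 rose and 2 fell, beside 8.06% and 9.23% of all genes. Gclc, for glutathione synthesis, rose by 0.38 (SE 0.09, adjusted p = 0.00818) (0.126 without the pair, range 0.000978 to 0.192).

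Of 24 genes of hypoxia and glycolysis tested 4 fell and none rose, beside 9.23% and 8.06% of all genes. All 4 were among the 15 of glycolysis and transport. Slc16a3, which exports lactate, read 43.2, 54.6, 49.4 and 60.9 CPM at 94 dB and 34.5, 36.6, 29.8 and 33.4 CPM at 105 dB without overlap. Its difference of -0.63 (SE 0.09, adjusted p = 0.00117) passed without the pair (0.0248) and with the trend removed (0.00686), and not with both (range 2.33e-07 to 0.0741). The pyruvate kinase gene Pkm read 1259, 1331, 1558 and 1892 CPM and 1067, 1058, 1062 and 1089.7 CPM, with 94 dB replicates 3 and 4 highest (-0.50 (SE 0.10, adjusted p = 0.0054)). Tpi1, triosephosphate isomerase, did the same (-0.45 (SE 0.10, adjusted p = 0.00961)), and neither passed without the pair (0.0847, range 0.000102 to 0.464, and 0.169, range 0.000163 to 0.355). Pkm also had 0.0532 with the trend removed.

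Markers of dividing cells were higher at 105 dB. Of 15 tested 8 rose and none fell, beside 8.06% and 9.23% of all genes, with a median of 0.25, and their summed level was 1647 to 1982 CPM at 94 dB, 1979 to 2403 CPM at 105 dB and 1678 to 2007 CPM at 70 dB. Mki67 (ENSMUSG00000031004; GRCm38 chromosome 7, 135689784 to 135716361), a marker of all cycling cells, read 328, 382, 265 and 273 CPM at 94 dB and 444, 592, 529 and 512 CPM at 105 dB. The lowest 105 dB library was above the highest 94 dB library, and 70 dB libraries lay at 386 to 461 CPM. Its difference of 0.73 (SE 0.11, adjusted p = 0.00148) passed without the pair (0.0317) and after removal of the GC and length trend (0.00346), and not with both (range 9.19e-08 to 0.0788). Top2a, a topoisomerase of dividing cells, rose by 0.43 (SE 0.10, adjusted p = 0.0126) (0.227 without the pair and 0.0717 with the trend removed, range 0.00059 to 0.549). Ube2c, of the mitotic ubiquitin machinery, rose by 0.46 (SE 0.10, adjusted p = 0.00607) (0.0966 without the pair, range 0.000375 to 0.0966). Without the pair Mki67 was the only 1 of the 15 that passed (0.282% of all genes rose). Adult mammalian hair cells do not divide, and marrow does. Erythroid markers rose in 4 of 14 and fell in 1, and B cell markers rose in 2 of 12 and fell in 1, beside 8.06% and 9.23% of all genes. Their part in the higher level of cycle genes was not tested.

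Within the erythroid list the globin genes differed among themselves. Hbb-bt (ENSMUSG00000073940; GRCm38 chromosome 7, 103812524 to 103813996), a beta globin gene, read 159.8, 176, 306 and 457 CPM at 94 dB, 85.96, 86.2, 92.6 and 52.01 CPM at 105 dB and 47.5 to 59.3 CPM at 70 dB. Replicates 3 and 4 of 94 dB were highest, replicates 1 and 2 also stood above every 105 dB library, and the difference of -1.80 (SE 0.33, adjusted p = 0.00816) held under the 24 alternatives that hold the gene (4.46e-06 to 0.0355). Its near-identical neighbour Hbb-bs read 7354, 7999, 15173 and 17012 CPM and 7990.0, 11559, 10342 and 8836 CPM with overlap (-0.30 (SE 0.26, adjusted p = 0.484)). That difference turned to 0.33 without the pair (adjusted p = 0.278, range 0.00338 to 0.895), and reads could be split between these genes. The alpha globin gene Hba-a2 read 826, 1088, 1116 and 2229.5 CPM and 2743, 1296, 4115 and 3476 CPM with overlap (1.14 (SE 0.38, adjusted p = 0.0683)). It passed without 94 dB replicate 4 (0.0291) or 105 dB replicate 2 (0.0226), after removal of the GC and length trend (0.0358) and by DESeq2 (0.0153, range 0.0153 to 0.281).

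Complement C1q genes were lower at 105 dB. C1q starts the classical complement pathway and is made by macrophages. C1qa (ENSMUSG00000036887; GRCm38 chromosome 4, 136895917 to 136898803) read 110.2, 121, 134 and 164 CPM at 94 dB and 66.1, 75.9, 84.1 and 71.7 CPM at 105 dB, with 65.3 to 79.6 CPM at 70 dB. The groups did not overlap, and the difference of -0.83 (SE 0.11, adjusted p = 0.000898) held under every alternative (8.80e-10 to 0.0171). C1qc changed by -0.42 (SE 0.08, adjusted p = 0.00322), with 0.0644 without the pair and 0.0715 after removal of the GC and length trend (range 3.55e-05 to 0.18). C1qb changed by -0.37 (SE 0.11, adjusted p = 0.0379), with overlap. Its call was lost on leaving out 94 dB replicate 3 (0.109) or 4 (0.122) or 105 dB replicate 1 (0.0986), 2 (0.0915) or 4 (0.112), in the 8 noise libraries alone (0.0527), without the pair (0.454) and after removal of the trend (0.261, range 0.00208 to 0.715). Of 12 macrophage markers these 3 fell and none rose, beside 9.23% of all genes lower and 8.06% higher. The other 9 did not pass, among them Csf1r, the receptor for the growth factor that sustains macrophages, which differed by -0.07 (adjusted p = 0.479). Without the pair 1 of the 12 fell and none rose (0.792% and 0.282% of all genes). With the GC and length trend removed 2 fell and 1 rose (5.22% and 4.56% of all genes). The summed level of the list was 741.18 to 933.01 CPM at 94 dB and 690.93 to 765.3 CPM at 105 dB.

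The interferon-stimulated genes Isg15, a ubiquitin-like modifier, and Ifit3b were lower as well. Isg15 read 10.2, 18.4, 22.2 and 30.5 CPM at 94 dB and 6.01, 7.81, 9.63 and 8.21 CPM at 105 dB (-1.36 (SE 0.32, adjusted p = 0.0169)). Replicate 1 of 94 dB stood just above the 105 dB libraries, and the call was lost without 94 dB replicate 3 (0.0526) or the pair (0.185, range 0.000639 to 0.187). Ifit3b read 5.21, 13.7, 10.3 and 14.6 and 4.32, 4.33, 3.51 and 3.53 CPM (-1.48 (SE 0.42, adjusted p = 0.0366)), and 70 dB libraries 4.20 to 16.8 CPM. That call was lost on leaving out any 1 of 7 libraries (94 dB replicates 2 to 4 and each of 105 dB; 0.0723 to 0.099) and had 0.27 without the pair (range 0.00462 to 0.306).

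Of 20 hair cell genes none rose and 2 fell, at a median of -0.06, beside 17.3% of all genes called in either direction. Espn, which bundles actin in stereocilia, read 35.2 ± 3.71 and 28.7 ± 2.18 CPM (SD, n = 4, -0.29 (SE 0.09, adjusted p = 0.0384)), lost on leaving out 94 dB replicate 3 or 4 or 105 dB replicate 1, 2 or 4 (0.0788 to 0.135) and without the pair (0.465). With the GC and length trend removed its difference was near 0 (adjusted p = 0.987, range 0.00733 to 0.987). Of 16 spiral ganglion genes 1 rose and 2 fell, near the share of all genes. Syt2, a calcium sensor of vesicle release, changed by -0.35 (SE 0.08, adjusted p = 0.00824) and Slc17a7, a vesicular glutamate transporter, by -0.38 (SE 0.09, adjusted p = 0.0115). Without the pair they had 0.0749 (range 0.00083 to 0.114) and 0.17 (range 0.00184 to 0.473), and Slc17a7 0.0901 with the trend removed. Snap25, a gene of vesicle release, was the 1 that rose, from 553 ± 48.9 to 658 ± 27.8 CPM (SD, n = 4, 0.25 (SE 0.08, adjusted p = 0.0426)). Its call was lost on leaving out 94 dB replicate 2, 3 or 4 or any 105 dB library. It was also lost without the pair (difference 0.17, adjusted p = 0.35) and with the trend removed (0.613, range 0.0163 to 0.917).

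Fibrocytes of the lateral wall and supporting cells gave mixed counts, 3 of 13 higher and 1 lower for the former and 3 of 19 higher and 3 lower for the latter, beside 8.06% of all genes higher and 9.23% lower. Otos, the fibrocyte protein otospiralin, read 1170.0, 1118, 2193 and 2051 CPM at 94 dB and 852, 933, 1057 and 796 CPM at 105 dB, with 94 dB replicates 3 and 4 far above the rest. Its difference of -0.84 (SE 0.21, adjusted p = 0.0186) was -0.33 without them (adjusted p = 0.117), and the call was also lost without 94 dB replicate 4 (0.0582) or 105 dB replicate 4 (0.0584, range 5.21e-06 to 0.18). Car3, a carbonic anhydrase of fibrocytes that adipocytes share, rose from 752, 698, 649.7 and 718 to 905, 902, 935 and 946 CPM (0.39 (SE 0.07, adjusted p = 0.00254)). No library overlapped, and it passed without the pair (0.0455) and after removal of the GC and length trend (0.00757) but not with both (range 1.57e-07 to 0.0836). Gjb2, the gap junction protein connexin 26 of fibrocytes and supporting cells, rose by 0.29 (SE 0.07, adjusted p = 0.0108) (0.152 without the pair, range 0.00033 to 0.26). Emcn, a surface protein of venous and capillary endothelium, rose from 40.8, 37.99, 35.6 and 31.8 to 48.9, 49.5, 52.2 and 53.3 CPM (0.48 (SE 0.07, adjusted p = 0.00138)), lost only without the pair and the trend together (range 6.10e-07 to 0.0968), while 3 of 12 endothelial markers fell. Of 26 matrix genes 2 rose and 1 fell, a smaller share than the 17.3% of all genes called. The collagen gene Col11a2 changed by -0.45 (SE 0.10, adjusted p = 0.00876) (0.159 without the pair and 0.234 with the trend removed, range 0.000527 to 0.821) and Dcn, the proteoglycan decorin, by 0.34 (SE 0.07, adjusted p = 0.00616) (0.0945 and 0.158 in the same order, range 6.22e-05 to 0.443).

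Some of the largest rises in genes whose mean log2 CPM reached 1, without overlap between groups, were outside the lists. Trf, transferrin, the iron carrier of plasma, read 65.9, 59.3, 65.02 and 56.4 CPM at 94 dB and 93.2, 130.5, 162 and 102 CPM at 105 dB (0.98 (SE 0.14, adjusted p = 0.00156)). Without the pair the difference was as large (0.96, adjusted p = 0.0524, range 5.70e-10 to 0.0614). The 94 dB libraries were close together, 105 dB replicate 3 was highest, and the gene overlaps the model Gm20425 over most of its length. Ddias, an apoptosis suppressor gene, read 6.39, 7.78, 5.36 and 5.44 CPM and 11.2, 12.3, 11.8 and 13.3 CPM at 94 and 105 dB. The groups did not overlap, and the difference of 0.96 (SE 0.14, adjusted p = 0.001) held under every alternative (2.19e-08 to 0.0499). St8sia2, which builds polysialic acid on neural adhesion molecules, read 7.54, 8.95, 6.21 and 6.99 CPM at 94 dB and 13.2, 14.1, 13.2 and 13.1 CPM at 105 dB, where 70 dB lay at 11.8 to 14.5 CPM. Its difference of 0.85 (SE 0.11, adjusted p = 0.000554) also held throughout (1.94e-10 to 0.0169). Plagl1, an imprinted zinc finger gene, rose by 0.91 (SE 0.17, adjusted p = 0.00359) (0.0708 without the pair, range 4.45e-06 to 0.108).

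Among the largest falls, Metrn, a secreted neurotrophic factor, read 4.24, 5.05, 8.33 and 6.94 CPM at 94 dB and 2.12, 1.74, 1.74 and 1.16 CPM at 105 dB. Every 94 dB library was above every 105 dB library, and the difference of -1.86 (SE 0.29, adjusted p = 0.00159) passed without the pair (0.0393) and after removal of the GC and length trend (0.00194), and not with both (range 1.10e-08 to 0.0545). Mien1, a small membrane-linked protein gene, fell from 13.7, 15.5, 22.6 and 18.6 to 6.04, 5.48, 9.08 and 5.01 CPM (-1.46 (SE 0.19, adjusted p = 0.000849)) and held under every alternative (6.95e-12 to 0.0148). Metrn and Mien1 both share positions with annotated genes on the opposite strand, so part of their reads may not be theirs. Srp54a, of the particle that directs proteins to the endoplasmic reticulum, read 5.89, 6.43, 5.46 and 4.37 CPM and 2.57, 2.33, 1.58 and 2.05 CPM (-1.37 (SE 0.19, adjusted p = 0.000738)). It held throughout (5.66e-10 to 0.00805), 94 dB replicates 3 and 4 were the lowest of their group, and the gene has near-identical copies. Foxe1, a forkhead factor, changed by -1.22 (SE 0.30, adjusted p = 0.0114) (0.119 without the pair and 0.0535 with the trend removed, range 0.000873 to 0.22). The immunoglobulin kappa gene Igkv1-117 changed by -1.39 (SE 0.28, adjusted p = 0.00728) (0.0583 without the pair, range 3.32e-06 to 0.0583), and belongs to a family of similar sequences.

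The set of genes that kept their call under every alternative that holds them (25, or 24 for mitochondrial and haemoglobin genes) had 74 members, 16 higher and 58 lower at 105 dB. Of 96 genes described above, which leave out Csf1r and Snap25, 78 were called, and 15 of those kept the call throughout. Higher at 105 dB were mt-Nd1, mt-Nd4, Ddias and St8sia2. Lower were Ndufa1, Ndufa3, Pfdn2, Pfdn6, Psmb7, Tsc1, Ier5, C1qa, Mien1, Srp54a and Hbb-bt. The 70 dB libraries serve both noise contrasts, so each contrast's own value is set side by side for a few of them, which do not stand for the rest. From 70 to 94 dB Ddias changed by -0.60, Ier5 by 0.74 and Pfdn6 by 1.14 on the log2 scale (edgeR adjusted p = 0.00496, 1.38e-05 and 2.84e-05). From 70 to 105 dB the differences of the same genes were 0.35, 0.03 and 0.14, and none passed (adjusted p = 0.184, 0.848 and 0.567). Ndufa1 differed by 1.22 from 70 to 94 dB and by 0.36 from 70 to 105 dB, and both passed (edgeR adjusted p = 3.93e-07 and 0.0445).

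Of the 78 called genes 54 did not pass without the 94 dB pair, a fit with 2 libraries at 94 dB. Their differences there were 39.4 to 106% of those in all libraries, with a median of 75.8%. Over all genes 217 were called in that fit, and 4604 when 94 dB replicates 1 and 2 were left out in its place. How far lost calls came from the pair or from having fewer libraries was not tested. In 37 of the 54 the difference shrank by no more than 1.5 times. The 17 that shrank further were Otos (-0.33 without the pair), Pet100 (-0.55), Isg15 (-0.86), Rps16, Ubb, Psmb5, Junb, Ier5l, Rptor, Rps6kb1, Tef, Pkm, Tpi1, Top2a, C1qb, Espn and Col11a2. In these the differences without the pair were -0.39 for Rps16, -0.41 for Psmb5, -0.34 for Junb, -0.31 for Ubb, -0.30 for Ier5l and -0.29 for Col11a2. For Pkm, Tpi1 and Tef they were -0.28, -0.22 and -0.22, for Rptor, C1qb and Espn -0.20, -0.17 and -0.16, and for Top2a and Rps6kb1, which rose, 0.25 and 0.20.

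**Figure D5:**
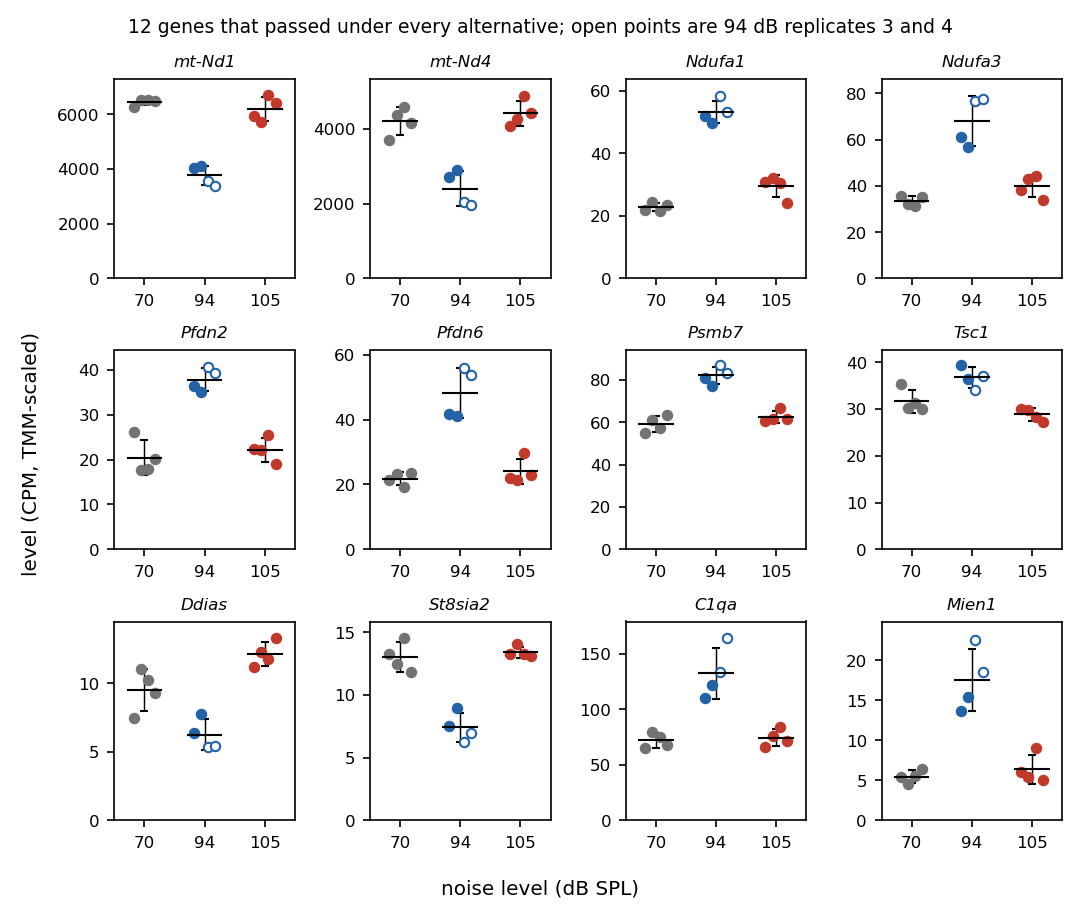
CPM (vertical axis, from 0) of 12 of the 15 named genes that passed under every alternative that holds them (24 or 25), in each of 4 libraries at 70, 94 and 105 dB SPL, with mean and SD as lines; open points are 94 dB replicates 3 and 4. In each panel all 4 libraries of 94 dB lie to one side of all 4 libraries of 105 dB.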

How the data were processed

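RNA-seq libraries were made with an Illumina TruSeq RNA kit from 1 µg of total RNA, per the labels' protocols. The authors deposited raw read counts per Ensembl gene, with CASAVA, STAR, featureCounts 1.5.0-p3 and build mm10 named in the submitters' processing notes. Not given in the sources used here are their parameters, the gene annotation, the use of strand and the handling of reads with several matches. Of 35496 IDs 35449 had a symbol; genes without one held 0.0269% of counts.

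Counts of all 12 libraries were fitted with edgeR 4.0.16 (R 4.3.3; quasi-likelihood, robust, TMM factors, a mean per group, 9 residual degrees of freedom). Genes passed filterByExpr at a minimum count of 10 (99.93% of counts kept). The contrast was 105 dB minus 94 dB, and p-values were Benjamini-Hochberg adjusted over 19497 genes. The code was tested on simulated data. Levels are TMM-scaled CPM. A count of 3, taken as the floor, was 0.0703 to 0.0966 CPM. Replicates correlated at 0.984 to 0.991 and no pair agreed within sampling noise. Positions, GC content and exon length came from GENCODE M21 (GRCm38).

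The members and the 32 gene lists were chosen with earlier results of these data known, so they are no independent support. Named genes were the 10 largest rises and 10 largest falls (mean log2 CPM from 1 upward, separate groups, a proper symbol), the 4 smallest p of each of 16 pathway lists, the 3 most abundant called markers of each of 16 cell type lists, and 15 fixed genes. Of these 122 the text gives those the results turn on, and a few are not reported here. The genes mt-Co2, mt-Co3, mt-Nd3, Hsf2, Hspa8, Hsp90aa1, Cebpb, Hbb-bs, Hba-a2 and Csf1r were named after their values were seen. No set test was run. The alternatives covered DESeq2 1.42.0 with its size factors, upper-quartile factors, 2 count filters, 8 libraries only, a block on replicate number, removal of the GC and length trend (lowess, span 0.3), leaving out mitochondrial and haemoglobin genes and leaving out each library. Leaving out the 94 dB pair with the GC and length trend removed, and leaving out 94 dB replicates 1 and 2, were added after seeing the data.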

Additional observations from a re-analysis of the deposited data

Results flagged for a closer look

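In 8 of 198 groups of 4 libraries examined, 1 library lay far from the other 3 by Dixon's test at the 95% level, which chance gives in about 1 of 20 groups. At 94 dB these were mt-Co3 in replicate 2, at 225 CPM where the others had 35.2 to 43.5, and Dnajb1 in replicate 1, at 154 CPM beside 123 to 127. At 105 dB replicate 3 was high for Ndufa2 (64.1 CPM beside 40.6 to 42.6) and Psmb7 (66.6 CPM beside 60.4 to 61.3), and replicate 2 for St8sia2 (14.1 CPM beside 13.1 to 13.2). Replicate 4 of 105 dB was low for Hbb-bt (52 CPM beside 86 to 92.6), Relb (14 CPM beside 16.5 to 16.7) and Arc (4.07 CPM beside 4.46 to 4.54).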

How the results depend on the processing

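The number of genes called (3372; 1572 higher, 1800 lower) stayed within 1.5 times under other scaling, filters, 8 libraries only (3139), DESeq2 (4152) and leaving out 94 dB replicates 1 and 2 (4604). Over 4 pairs of libraries with the same replicate number the correlation of deviations was -0.0222 to 0.182. It was highest for replicate 2, and pairs of unlike number had -0.132 to 0.0664. The labels code 105 dB replicates 3 and 4 with the numbers 4 and 5, so replicate numbers may not mark pairs. With a block on replicate number 3366 genes passed. After removal of the GC and length trend 1908 passed (890 higher, 1018 lower), and 2005 with the replicate block as well (962 and 1043). Without 94 dB replicates 3 and 4 it was 217 (57 and 160), and with the trend also removed 152 (48 and 104). Leaving out 1 library gave 1650 to 3798 genes (714 to 1673 higher, 936 to 2125 lower), the fewest without 94 dB replicate 3 (1650) or 4 (1860) and without 105 dB replicate 4 (1996) or 2 (2057), and the cause was not tested. Of 96 named genes 15 kept their call in every alternative that holds them (25, or 24 for mitochondrial and haemoglobin genes). Without a filter on low counts Cebpb (adjusted p = 0.133), Ifit3b (0.0809) and Otos (0.0509) were lost, and Cebpb also in 8 libraries only (0.0515). The difference in mitochondrial share was 1.44 to 1.79 points on leaving out 1 library, where the smallest exact permutation p is 0.0571, and 1.21 without the pair. That in haemoglobin share turned from -0.018 to 0.020 with the other classes left out, -0.24 to 0.16 on leaving out 1 library and 0.49 without the pair, and that in ribosomal share to 0.22 without the pair. Signs also turned for mt-Co3 (-0.60 to 0.77 on leaving out 1 library, the latter without 94 dB replicate 2, and 0.83 without replicates 1 and 2), Hbb-bs (0.33 without the pair, 0.30 with the trend also removed) and Per1 (0.015 in the latter). With the trend removed, alone and with the replicate block, so did Atf4 (0.044 and 0.038) and Espn (0.0031 in both, 0.061 without the pair as well), neither of them called there.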
